A study of Mus musculus with 2 samples.

Results

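The costimulatory tumour necrosis factor (TNF) receptors and ligands described here are 9 genes chosen by symbol: the receptors Tnfrsf4 (OX40), Tnfrsf18 (GITR), Tnfrsf9 (4-1BB), Cd27 and Cd40, and the ligands Cd40lg, Tnfsf4 (OX40 ligand), Tnfsf9 (4-1BB ligand) and Cd70. All 9 were found among the 32285 genes of both count matrices. They were followed across immune classes of tumour leukocytes in a knockout (KO) and a wild-type (WT) library. The cells came from B16-F0 tumours, grown from a transplantable mouse melanoma line, and were sorted as living leukocytes (CD45+ DAPI-) before droplet sequencing of RNA 3' ends. Each genotype had 1 library, and the labels name neither the knocked-out gene nor the age, sex or number of the mice; no targeted gene was looked up in the counts. The labels call the cells tumour-infiltrating regulatory T cells. Cells classed from clusters with regulatory T (Treg) markers were 4.57% of the kept KO cells and 2.53% of the kept WT cells. By a gate on single cells that required RNA of Foxp3, 141 KO and 158 WT cells were Treg-like.

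In this family a ligand on an antigen-presenting cell, or at times on a lymphocyte, binds a receptor on an activated T or NK cell. The receptor's tail binds TRAF adaptors, which pass the signal to NF-kB and favour survival, division and cytokine release. CD40 runs the other way: it sits on B cells, monocytes and dendritic cells (DCs) and is bound by CD40 ligand on activated CD4 T cells. Treg cells are known to carry much OX40 and GITR, and antibodies to several of these receptors have been tried in tumours.

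After filtering and removal of likely doublets, 10116 KO cells had a median of 5918 unique molecular identifiers (UMIs, each 1 counted RNA molecule), and 10133 WT cells a median of 4756. Clusters were named from marker genes, with the 9 genes and their pathway genes kept out of the clustering, and names end in -like. In 11 classes both libraries held at least 100 cells. Levels are in CPM, a gene's UMIs per 1000000 UMIs of all genes in that class and library. Ratios are log2 of KO over WT CPM with 95% intervals that cover counting error only, since 1 library per genotype allows no test. A gene was called higher or lower where the ratio was at least 1.5-fold, its interval excluded 1 and both libraries together held at least 20 UMIs. This is a rule of size. B-like cells were 3.96% of KO and 34.5% of WT cells, and 42 cell barcodes occurred in both libraries.

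In the genome (GRCm38) the family lies partly in neighbouring pairs. Tnfrsf4 spans chr4:156013843-156016612 and Tnfrsf18 chr4:156026164-156028895, both on the plus strand, with 9551 bases and no protein-coding gene between them. Tnfrsf9 lies on the same chromosome at chr4:150914562-150946102, plus strand. The ligands Tnfsf9 (chr17:57105325-57107757, plus strand) and Cd70 (chr17:57145997-57149777, minus strand) are 38239 bases apart. Cd27 lies at chr6:125232622-125237010 on the minus strand, Cd40 at chr2:165055627-165072948, Cd40lg at chrX:57212143-57224042 and Tnfsf4 at chr1:161395409-161418410, the last 3 on the plus strand. On the opposite strand, exons of Gm16008 overlap those of Tnfrsf18, and exons of Gm11110 those of Tnfsf9. On the same strand Mir8113 overlaps an exon of Cd27, whose reads could be shared with it.

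Promoter sequence was at hand for 4 of the 9 genes, from RefSeq on GRCm38.p6, each window running from 250 bases before to 50 bases after a start site on the gene's strand. The 2 Tnfrsf9 windows and those of the neighbours Tnfrsf4 and Tnfrsf18 are shown because these 3 receptors had the highest levels in the same class. Capitals mark matches, on either strand, to the NF-kB consensus or to the AP-1 motif TGANTCA.
Tnfrsf9 promoter 1, chr4:150919905-150920204: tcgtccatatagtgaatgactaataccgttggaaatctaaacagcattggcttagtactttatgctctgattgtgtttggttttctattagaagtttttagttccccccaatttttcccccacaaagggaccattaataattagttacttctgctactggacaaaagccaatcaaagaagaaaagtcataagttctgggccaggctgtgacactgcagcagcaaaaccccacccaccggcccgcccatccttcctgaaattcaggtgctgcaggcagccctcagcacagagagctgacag
Tnfrsf9 promoter 2, chr4:150927749-150928048: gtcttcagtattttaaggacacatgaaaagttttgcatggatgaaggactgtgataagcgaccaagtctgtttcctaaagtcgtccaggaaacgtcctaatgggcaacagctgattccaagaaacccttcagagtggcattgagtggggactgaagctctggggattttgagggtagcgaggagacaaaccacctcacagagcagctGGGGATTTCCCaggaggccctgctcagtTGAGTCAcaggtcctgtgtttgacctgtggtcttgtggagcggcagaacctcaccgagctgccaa
Tnfrsf4 promoter, chr4:156013445-156013744: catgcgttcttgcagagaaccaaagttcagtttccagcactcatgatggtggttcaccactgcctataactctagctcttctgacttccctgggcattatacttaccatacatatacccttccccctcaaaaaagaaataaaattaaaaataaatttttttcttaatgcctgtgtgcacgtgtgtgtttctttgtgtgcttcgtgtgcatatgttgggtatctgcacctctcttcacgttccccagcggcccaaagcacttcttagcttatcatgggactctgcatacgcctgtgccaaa
Tnfrsf18 promoter, chr4:156026072-156026371: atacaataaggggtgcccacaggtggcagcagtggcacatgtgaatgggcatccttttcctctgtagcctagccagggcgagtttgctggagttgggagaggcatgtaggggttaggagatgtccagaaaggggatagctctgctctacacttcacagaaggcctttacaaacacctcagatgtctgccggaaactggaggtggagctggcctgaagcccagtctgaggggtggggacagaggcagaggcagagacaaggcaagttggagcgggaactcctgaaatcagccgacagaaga
The second Tnfrsf9 window held 2 overlapping NF-kB matches beginning 43 and 42 bases before the start and 1 AP-1 match beginning 15 bases before it. The other windows held no match to these letters. The Tnfrsf4 window ends at 156013744, before the gene start at 156013843 given above, so it does not cover that start. The NF-kB form occurred in 4.51% of 32851 windows of this length and the AP-1 motif in 7.81%. The NF-kB form was settled on after the sequences had been seen: a first form had matched 0 of the 5 windows of these genes and 4.59% of all windows, and a looser one had matched 2 of the 5 and 50.8% of all windows. A match is a description of letters and not a binding site.

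**Figure D1:**
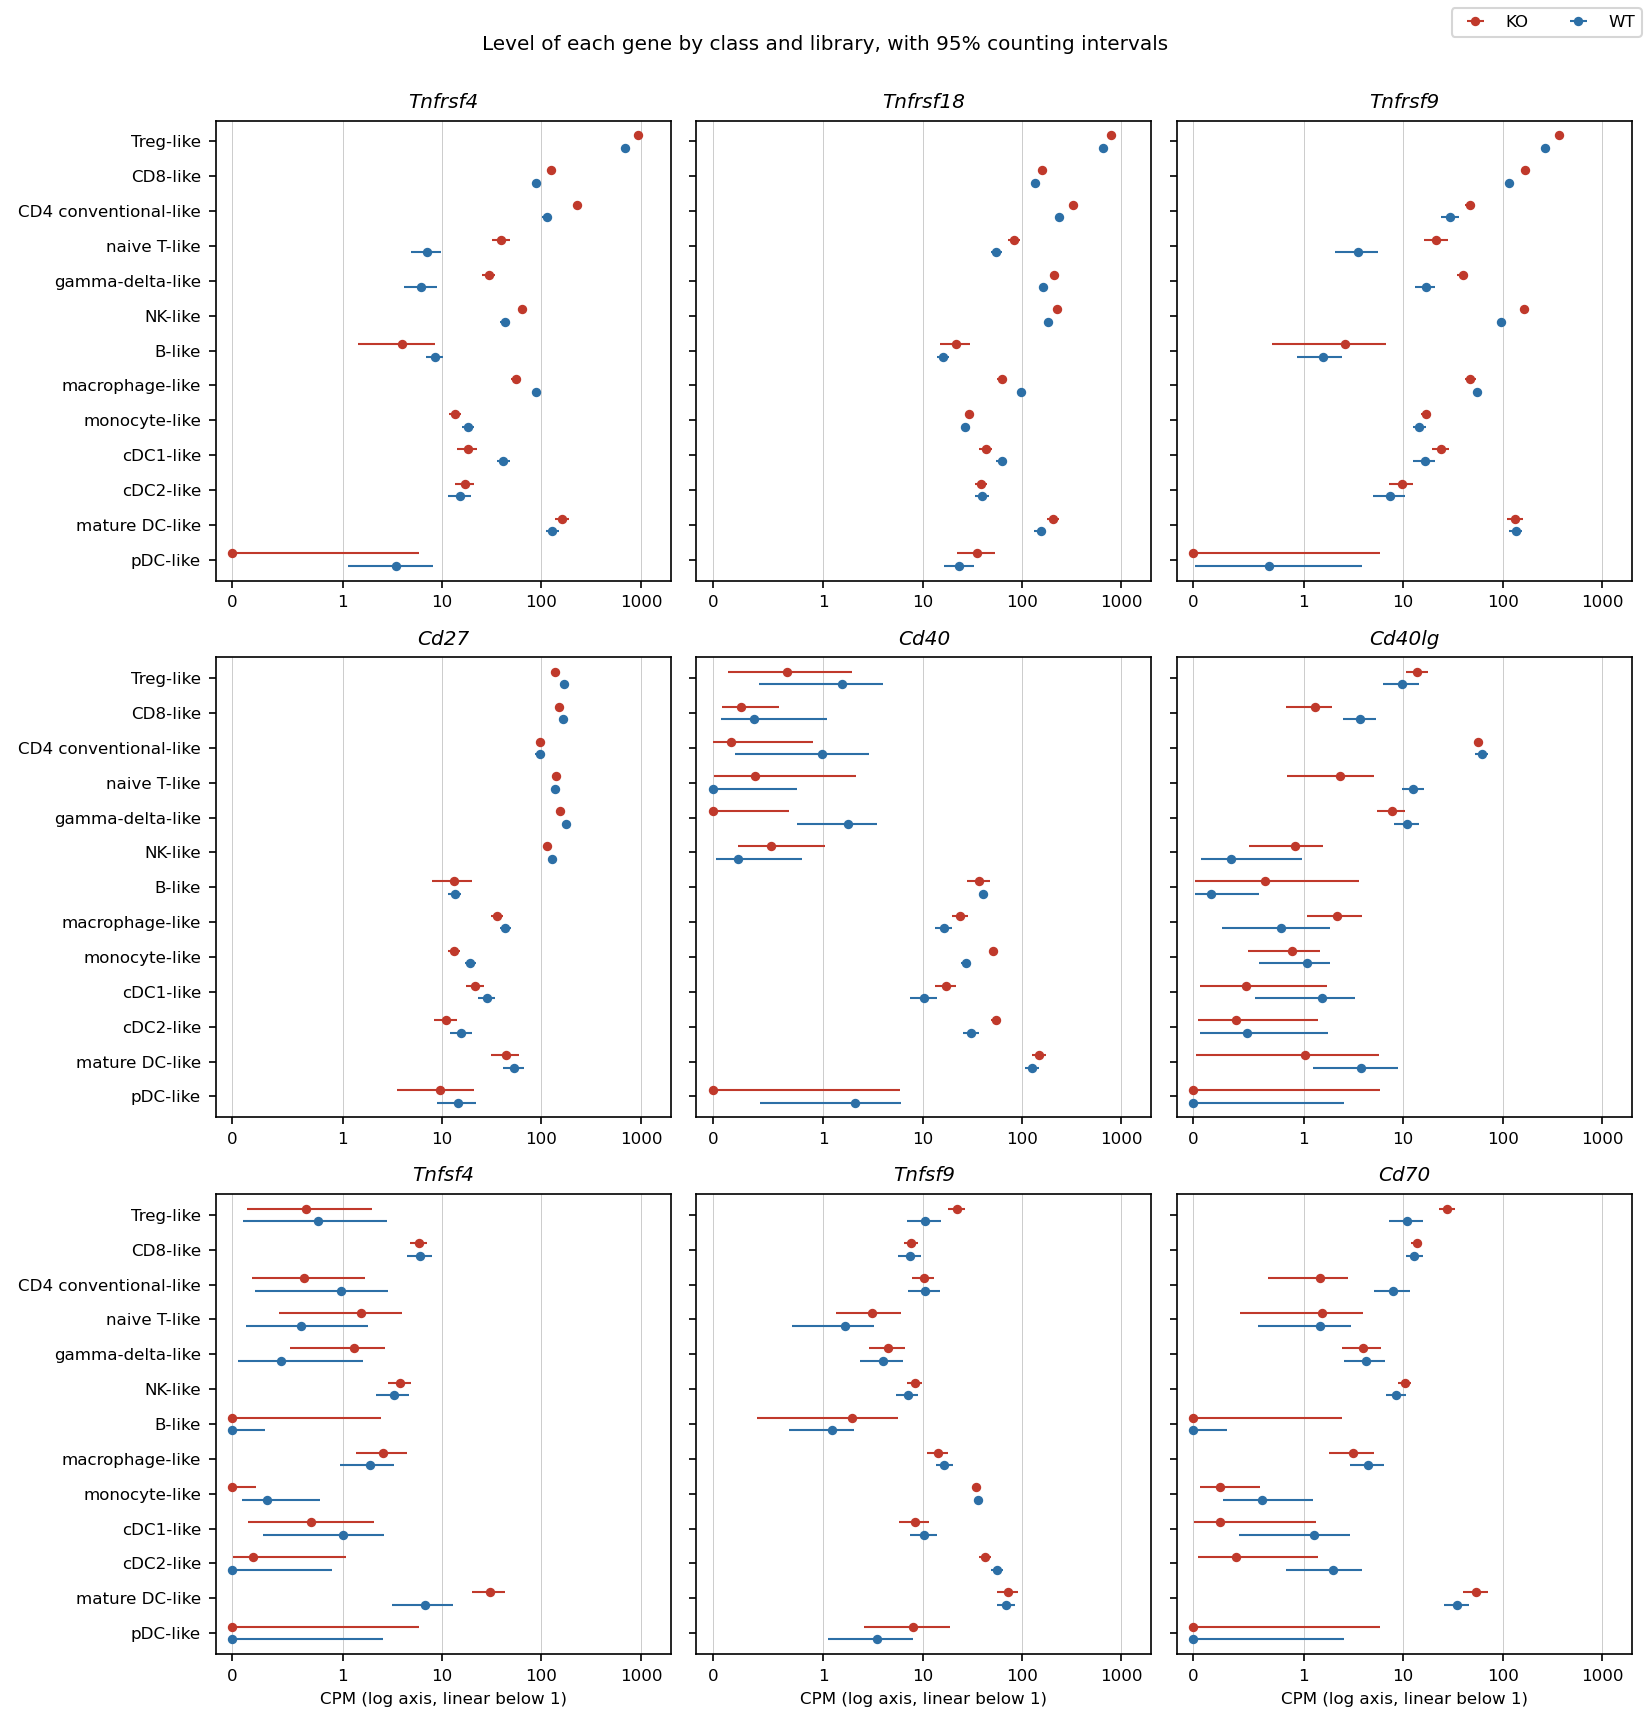
Level of each of the 9 genes in CPM (log axis, linear below 1) in 13 classes, KO above WT, with 95% counting intervals. Tnfrsf4, Tnfrsf18 and Tnfrsf9 peak in Treg-like cells, Cd40lg in CD4 conventional-like cells, and Cd40 and the other 3 ligands in mature DC-like cells, where the WT intervals of Tnfsf4 and Tnfsf9 overlap those of the next class.

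Over the 11 classes, 73 of 99 gene-and-class pairs were measured, and 13 were called higher and 6 lower in KO. Of all 116135 gene-and-class pairs measured, 3.31% were called higher and 3.16% lower, both smaller shares than among the 9 genes. The 9 genes were chosen with earlier results of these data known, so no conclusion is drawn from their larger shares. The counts of called pairs depend on how doublets were removed. Under the rule first planned, which removed 355 WT and 1015 KO cells because the doublet caller had worked in the WT library alone, 12 pairs were higher and 23 lower, against 2.6% and 5.26% of all pairs. Without cells carrying markers of 2 lineages 15 pairs were higher and 3 lower, against 3.7% and 2.91% of all pairs. The values here use a common rule (1015 KO and 1020 WT cells removed), adopted after the first values had been seen.

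**Figure D2:**
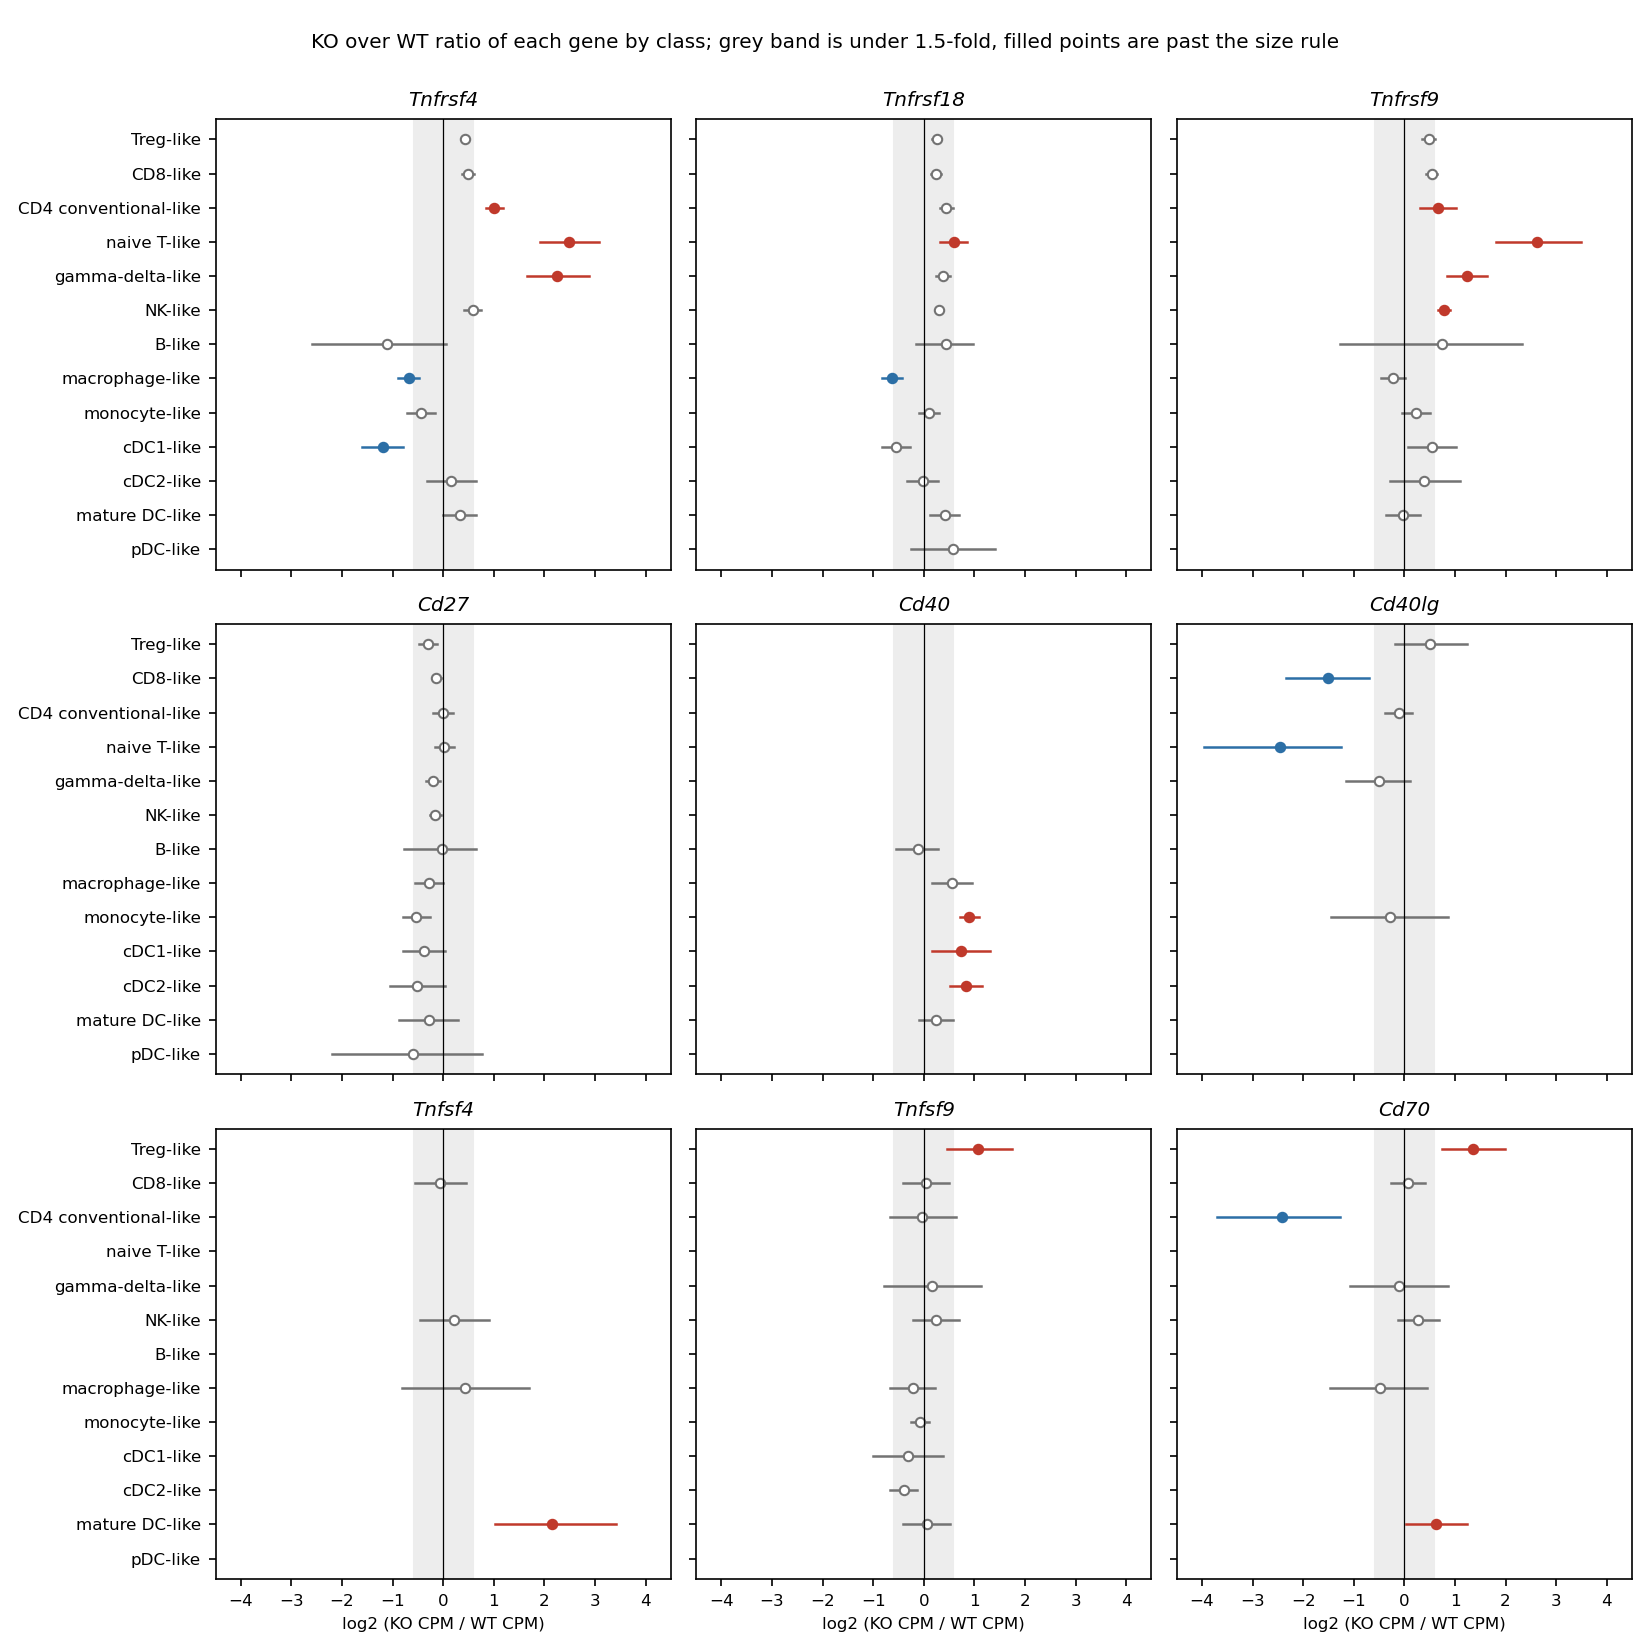
Log2 ratio of KO over WT CPM for each gene by class, for pairs with at least 20 UMIs, with 95% counting intervals. The grey band marks ratios under 1.5-fold; red points were called higher in KO, blue points lower, and open points neither.

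Treg-like cells had the highest levels of the first 3 receptors in both libraries, apart from every other class by their counting intervals. Of the class markers, Ctla4 was detected in 86.2% of KO and 88.3% of WT Treg-like cells and Foxp3, the lineage factor, in 29.6% of KO and 58.6% of WT cells. Tnfrsf4, which sustains activated T cells, had 4170 UMIs in 462 KO cells (933 CPM) and 1791 UMIs in 256 WT cells (695 CPM), a log2 ratio of 0.42 [0.34, 0.51]. Tnfrsf18, a costimulator long used to mark Treg cells, had 784 CPM in KO and 658 CPM in WT. Tnfrsf9, induced on activation, had 370 CPM in KO and 265 CPM in WT, a ratio of 0.48 [0.35, 0.61]. All 3 were higher in KO and under the 1.5-fold rule. At least 1 UMI of each of the 3 was found in 275 of 462 KO cells (59.5%) and 134 of 256 WT cells (52.3%). After every cell was thinned to 1000 UMIs these shares were 14.1% in KO and 10.55% in WT.

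The members called in Treg-like cells were 2 ligands, both higher in KO, against 2.39% of 9854 genes called higher there; 3.04% were called lower. Cd70, the ligand of CD27, had 124 UMIs in KO (27.7 CPM) and 28 in WT (10.9 CPM), a ratio of 1.35 [0.75, 2.00]. It was found in 12.8% of KO and 7.42% of WT Treg-like cells. Tnfsf9, the ligand of 4-1BB, had 99 UMIs in KO (22.2 CPM) and 27 in WT (10.5 CPM), a ratio of 1.08 [0.45, 1.75]. The KO library was thus above the WT library for both ligands, at a low level in each. The Tnfsf9 call was kept under 8 of 11 alternatives and lost with classes drawn by a gate on marker UMIs of single cells (-0.16), with the members and pathway genes kept in the clustering and under thinning. The Cd70 call was lost under thinning alone. Cd27 itself had 136 CPM in KO and 168 CPM in WT. RNA of B-cell markers summed to 118 CPM in KO and 376 CPM in WT Treg-like cells, with none of the 7 markers at 0, and its part in these ratios was not tested. Without cells that carried markers of 2 lineages, 1.08% of KO and 8.2% of WT Treg-like cells, the ratios were 1.62 for Cd70 and 1.00 for Tnfsf9.

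CD4 conventional-like cells held the highest level of Cd40lg and the next highest of Tnfrsf18 in both libraries. In this class 2 members were called higher in KO, against 2.7% of 10168 genes, and 1 lower, against 2.18%. Tnfrsf4 had 1388 UMIs in 1202 KO cells (227 CPM) and 343 UMIs in 587 WT cells (113 CPM), a ratio of 1.01 [0.84, 1.18]. A UMI of Tnfrsf4 was found in 38.9% of KO and 25.6% of WT cells at medians of 4327 and 4347 UMIs per cell, and in 1.25% of KO and 1.26% of WT B-like cells. This call was kept under all 11 alternatives run, at 0.88 to 1.06. Tnfrsf9 had 46.7 CPM in KO and 29.5 CPM in WT, a ratio of 0.66 [0.31, 1.02]; it was kept under 7 of 11 alternatives, at 0.05 to 0.98.

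Cd40lg, by which helper T cells signal to CD40-bearing cells, was close in the 2 libraries in its main class. CD4 conventional-like cells had 349 UMIs in KO (57.0 CPM) and 188 in WT (61.7 CPM), a ratio of -0.12 [-0.38, 0.15]. A UMI was found in 23.9% of KO and 24.5% of WT cells. In naive T-like cells it was called lower in KO, with 6 UMIs in 315 KO cells (2.31 CPM) and 61 in 650 WT cells (12.6 CPM), a ratio of -2.45 [-3.95, -1.25]. Nearly all of those UMIs, 6 in KO and 58 in WT, lay in the cluster led by Igfbp4, Ly6c1 and Ccr7, which was 20.3% of the KO and 33.4% of the WT class. Within that cluster the levels were 18.3 CPM in KO and 50.04 CPM in WT, a ratio of -1.45 [-2.96, -0.24]. In CD8-like cells Cd40lg was the single member called, lower in KO, beside 4.4% of 11533 genes called lower and 3.56% higher. It had 25 UMIs in KO (1.295 CPM) and 30 in WT (3.70 CPM), a ratio of -1.52 [-2.34, -0.70]. With classes drawn by the single-cell gate the ratio was -0.55 in naive T-like and -0.14 in CD8-like cells, and neither was called.

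CD8-like cells differed more between their clusters than between the libraries. In the cluster led by Lag3, Havcr2 and Nrgn, which held 20.9% of KO and 13.5% of WT CD8-like cells, Tnfrsf4 had 196 CPM in KO and 195 CPM in WT, a ratio of 0.01 [-0.17, 0.19]. Tnfrsf9 in that cluster had 288 CPM in KO and 250 CPM in WT, a ratio of 0.20 [0.05, 0.36]. In the cluster led by Gzmk, Cx3cr1 and Cd8b1, which held 61.1% of KO and 75.5% of WT cells, Tnfrsf4 had 5.06 CPM in KO and 10.2 CPM in WT, a ratio of -1.02 [-1.78, -0.27]. Tnfrsf9 in that cluster had 14.1 CPM in KO and 9.455 CPM in WT (0.57 [-0.02, 1.19]). Proliferating cells were 18% of the KO and 11% of the WT class. Over the whole class Tnfrsf4 had 124 CPM in KO and 88.0 CPM in WT (0.49 [0.37, 0.62]), and Tnfrsf9 had 170 CPM in KO and 117 CPM in WT (0.54 [0.43, 0.64]). The class ratios therefore lay above those of the Lag3-led cluster, and the shares of clusters differed between the libraries. Without cells carrying markers of 2 lineages the class ratio of Tnfrsf9 was 0.75 [0.63, 0.86] and was called. Cd70 was at 19.6 CPM in KO and 23.8 CPM in WT in the Lag3-led cluster, and had 2 UMIs in KO and 0 in WT in the Gzmk-led one.

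**Figure D3:**
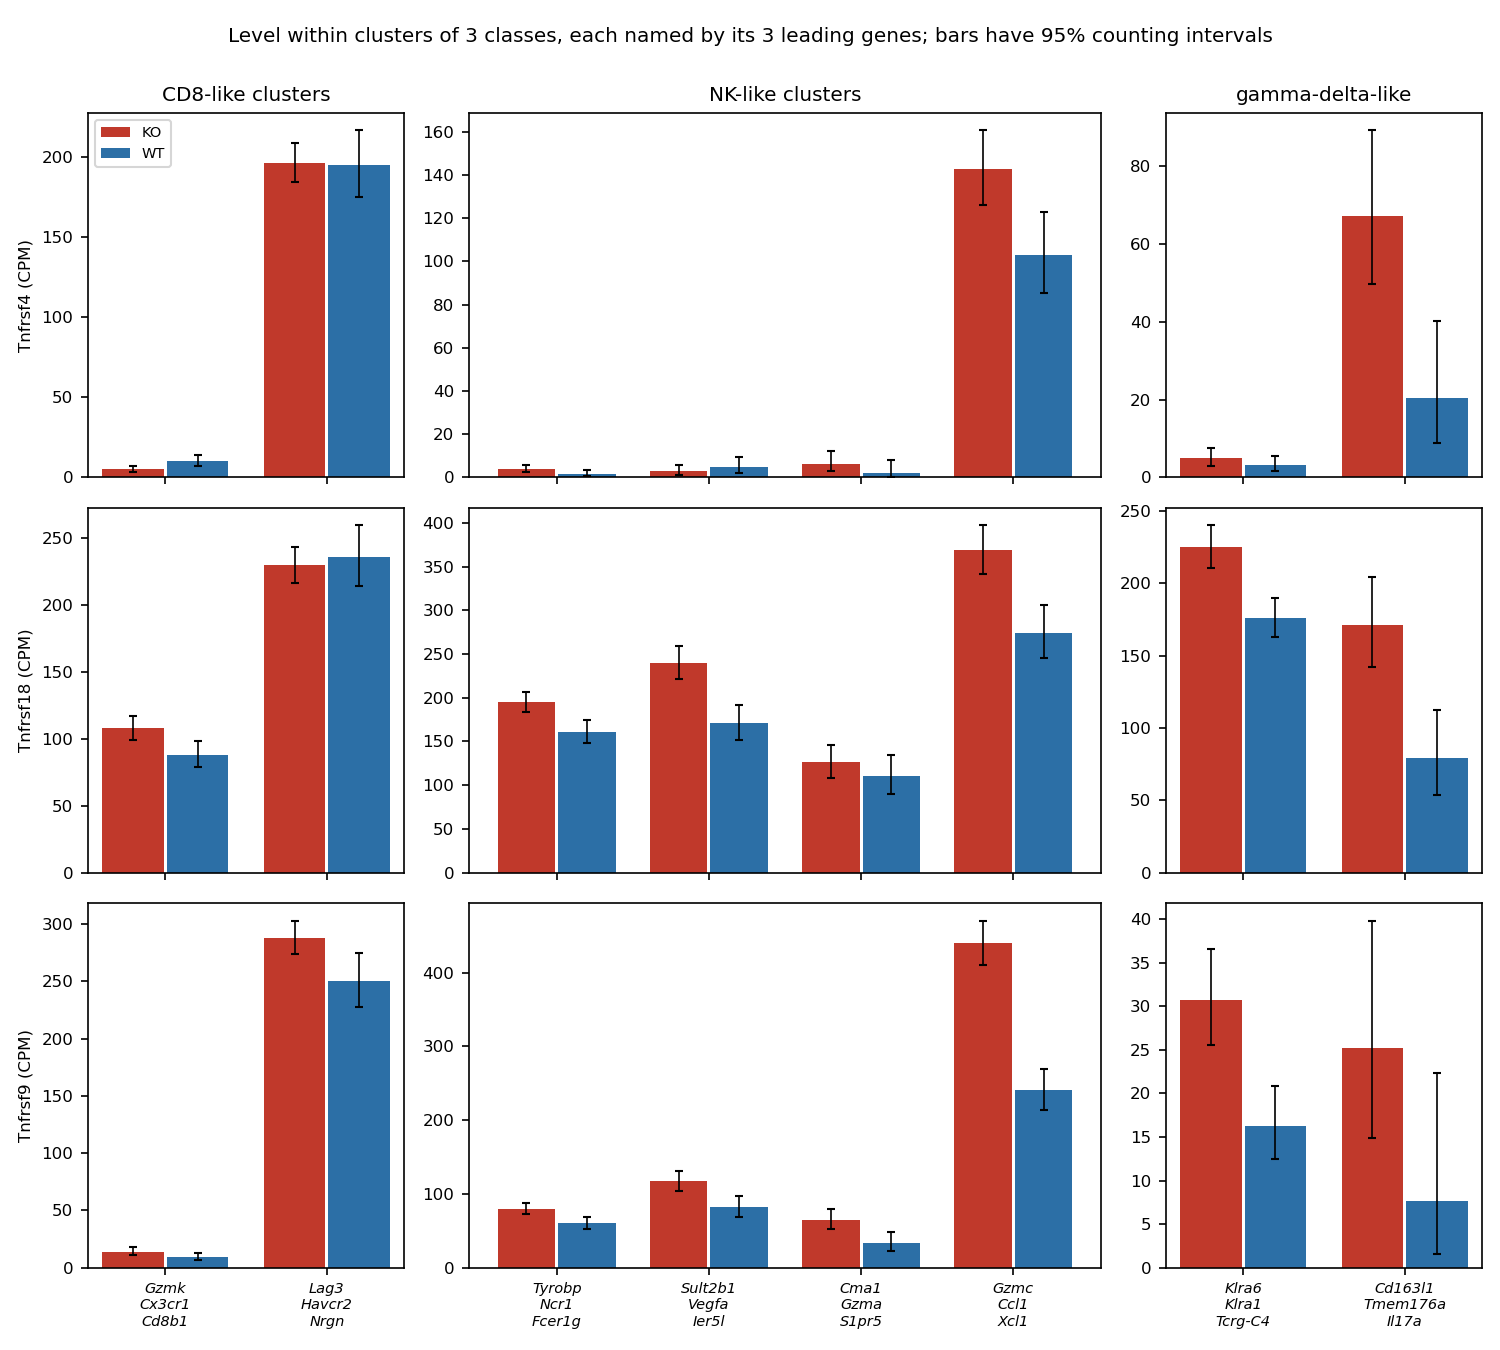
CPM of Tnfrsf4, Tnfrsf18 and Tnfrsf9 within clusters of CD8-like, NK-like and gamma-delta-like cells, each cluster named by its 3 leading genes, KO left of WT, with 95% counting intervals. Levels of Tnfrsf4 and Tnfrsf9 sit highest in the Lag3-led CD8-like cluster and the Gzmc-led NK-like cluster, and Tnfrsf9 is higher in KO than in WT in each of the 4 NK-like clusters drawn.

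In NK-like cells Tnfrsf9 was the single member called, higher in KO, against 3.06% of 11502 genes, with 1.6% called lower. It had 2507 UMIs in 2350 KO cells (165 CPM) and 857 in 1327 WT cells (96.3 CPM), a ratio of 0.78 [0.67, 0.89]. A UMI was found in 30.9% of KO cells at a median of 4732 UMIs and 23.9% of WT cells at a median of 5329 UMIs, and after thinning in 9.45% of KO and 5.88% of WT cells. Each of the 4 main NK-like clusters had a higher level in KO. The cluster led by Gzmc, Ccl1 and Xcl1 had 440 CPM in KO and 240 CPM in WT (0.87 [0.68, 1.07]). The cluster led by Tyrobp, Ncr1 and Fcer1g, the largest, had 79.7 CPM in KO and 60.6 CPM in WT (0.40 [0.16, 0.63]). The call was kept under all 11 alternatives, at 0.59 to 0.83. Without cells carrying markers of 2 lineages Tnfrsf4 was also called higher in NK-like cells, at 0.66 [0.48, 0.84]. Tnfrsf4 had 142.5 CPM in KO and 102.7 CPM in WT in the Gzmc-led cluster, and at most 6.36 CPM in KO and 4.685 CPM in WT in the other 3 main clusters.

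Gamma-delta-like cells are a class with sparse markers, Trdc in 33.3% of KO and 22.9% of WT cells, and its main cluster was led by Klra6 and Klra1, so it may hold other unconventional T cells. Here 2 members were called higher in KO, against 2.91% of 10294 genes, with 1.67% called lower. Tnfrsf9 had 213 UMIs in 859 KO cells (39.7 CPM) and 76 in 686 WT cells (16.9 CPM), a ratio of 1.24 [0.85, 1.63], kept under all 11 alternatives at 0.95 to 1.93. Tnfrsf4 had 158 UMIs in KO (29.4 CPM) and 28 in WT (6.21 CPM), a ratio of 2.24 [1.66, 2.88]. Its UMIs were few in the Klra6-led cluster, 20 in KO and 12 in WT. In the cluster led by Cd163l1, Tmem176a and Il17a, Tnfrsf4 had 67.2 CPM in KO and 20.4 CPM in WT (1.72 [0.63, 3.02]). The remaining UMIs lay in proliferating cells, 21 KO and 13 WT cells. Under thinning the ratio was 0.81 and was not called.

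In naive T-like cells 3 members were called higher in KO, against 8.55% of 9347 genes, the widest background of any class, and Cd40lg lower, against 2.06%. Tnfrsf4 had 102 UMIs in KO (39.3 CPM) and 34 in WT (7.05 CPM), and Tnfrsf9 had 56 in KO (21.6 CPM) and 17 in WT (3.52 CPM). The ratios were 2.48 for Tnfrsf4 and 2.61 for Tnfrsf9. The class held 8 KO and 7 WT proliferating cells, and without them the ratios were -0.11 for Tnfrsf4 and 1.09 for Tnfrsf9, neither called. Tnfrsf18 had 83.2 CPM in KO and 55.1 CPM in WT, a ratio of 0.59 [0.33, 0.86] at the edge of the rule and kept under 3 of 11 alternatives. A cluster led by the interferon-induced genes Ifit3, Ifit1 and Isg15, left without a class name, had 53.9 CPM of Tnfrsf9 in 317 KO cells (98 UMIs) and 6.51 CPM in 140 WT cells (6 UMIs), a ratio of 3.05 [1.88, 4.53].

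Cd27, which supports survival of T cells, differed by less than 1.5-fold between the libraries in each of the 11 classes. It lay between 95.8 and 152 CPM in KO and between 96.2 and 174.5 CPM in WT in the 6 T and NK classes, and no ratio among the 11 classes was called. The largest departure in those 6 was in Treg-like cells, -0.30 [-0.48, -0.12]. Over all 11 it was in monocyte-like cells, -0.53 [-0.80, -0.27], and the ratio was above 0 in naive T-like cells alone (0.02). In both libraries gamma-delta-like cells had the highest level, and their interval overlapped that of the next class.

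Cd40, through which antigen-presenting cells receive T-cell help, was higher in KO in 3 of the 4 compared myeloid and DC classes by the rule. Monocyte-like cells had 855 UMIs in 1578 KO cells (50.7 CPM) and 349 in 987 WT cells (27.2 CPM), a ratio of 0.90 [0.72, 1.08], as the single member called, against 2.08% of 12000 genes called higher and 5.36% lower. cDC2-like cells, conventional DCs that mainly prime CD4 T cells, had 285 UMIs in KO (54.9 CPM) and 126 in WT (30.8 CPM), a ratio of 0.83 [0.53, 1.15], again the single call, against 2.91% of 10075 genes called higher and 2.95% lower. In cDC1-like cells, which cross-present antigen, Cd40 was called higher at 17.2 CPM in KO and 10.4 CPM in WT, a ratio of 0.73 [0.16, 1.32], against 2.77% of 9971 genes. The cDC1-like call was kept under 7 of 11 alternatives, at 0.42 to 2.78. Macrophage-like cells had 23.9 CPM in KO and 16.3 CPM in WT, 0.56 [0.16, 0.95], which was not called. All 4 of these classes were higher in KO, while B-like cells were close, with 37.2 CPM in KO and 40.5 CPM in WT (-0.12 [-0.55, 0.27]); no member was called in B-like cells, where 3.3% of 10395 genes were called higher and 2.48% lower.

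The monocyte-like difference in Cd40 sat in 1 of the 2 main clusters. In the cluster led by Ccl2, Thbs1 and Arg1, 85% of KO and 75.7% of WT monocyte-like cells, it had 54.6 CPM in KO and 27.6 CPM in WT, a ratio of 0.98 [0.79, 1.18]. In the cluster led by Hp, Lyz2 and Chil3 it had 22.1 CPM in KO and 25.3 CPM in WT, a ratio of -0.20 [-0.80, 0.39]. The difference between these clusters' ratios was not tested. A UMI of Cd40 was found in 29.7% of KO and 22.4% of WT monocyte-like cells, and after thinning in 5.39% of KO and 2.74% of WT cells. In NK-like cells, which should lack it, the shares were 0.34% in KO and 0.151% in WT. The monocyte-like call was kept under all 11 alternatives, at 0.79 to 1.13, and the cDC2-like call under 10 of 11, lost under thinning at 0.76.

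Macrophage-like cells had 2 members called lower in KO, against 5.72% of 10996 genes, with 2.81% called higher: Tnfrsf4 at 55.1 CPM in KO and 88.6 CPM in WT (-0.68 [-0.90, -0.47]) and Tnfrsf18 at 62.2 CPM in KO and 96.5 CPM in WT (-0.63 [-0.83, -0.43]). In cDC1-like cells Tnfrsf4 was called lower at 18.1 CPM in KO and 41.5 CPM in WT (-1.19 [-1.61, -0.79]), against 2.7% of genes. The 5 T-cell markers summed to 1044 CPM in KO and 970 CPM in WT macrophage-like cells. In cDC1-like cells they summed to 416 CPM in KO and 597 CPM in WT. The part of this RNA in the ratios was not tested. Markers of 2 lineages were carried by 57.5% of KO and 59.9% of WT macrophage-like cells, and by 20% of KO and 22.7% of WT cDC1-like cells. Without such cells Tnfrsf4 was at 1.9 CPM in KO and 0.53 CPM in WT macrophage-like cells, and at 2.46 CPM in KO and 1.14 CPM in WT cDC1-like cells, resting on 3 KO and 1 WT UMIs in macrophage-like and 7 KO and 3 WT UMIs in cDC1-like cells. Tnfrsf18 had 1 KO and 15 WT UMIs in macrophage-like cells, so all 3 pairs were then under the 20 UMIs needed for a call. Elsewhere receptor UMIs remained without such cells, as for Tnfrsf18 in cDC2-like cells with 93 in KO and 79 in WT. Without those cells the macrophage-like Cd40 level was 30.9 CPM in KO and 15.85 CPM in WT, and that ratio, 0.96 [0.28, 1.67], was called.

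Mature DC-like cells, known as migratory DCs, were 66 KO and 68 WT cells, a class taken in after the data were seen. Cd40, Tnfsf9, Tnfsf4 and Cd70 had their highest class levels there in both libraries, but in WT the interval of Tnfsf4 overlapped that of CD8-like cells and the interval of Tnfsf9 that of cDC2-like cells. Tnfsf9 had 72.5 CPM in KO and 69.5 CPM in WT there, Cd70 had 53.9 CPM in KO and 34.7 CPM in WT, and Cd40 had 149 CPM in KO and 126 CPM in WT. Tnfsf4, the OX40 ligand, had 29 UMIs in KO (30.03 CPM) and 9 in WT (6.80 CPM), a ratio of 2.14 [1.03, 3.41]. Tnfsf4 and Cd70 were the 2 members called higher, against 4.93% of 7386 genes, with 5.02% called lower. Each call was lost without the top cell of each library. A single KO cell held 20 of the 29 Tnfsf4 UMIs, and without it and the top WT cell 9 UMIs in KO and 7 in WT remained, a ratio of 0.79 [-0.80, 2.45]. Without cells carrying markers of 2 lineages, 36.4% of KO and 42.6% of WT cells, the Tnfsf4 ratio was 2.87 [1.34, 4.84]. The Cd70 ratio was 0.63 [0.03, 1.24] with all cells and 0.49 [-0.18, 1.17] without the top cell. Mature DC-like cells also held receptor RNA without cells carrying markers of 2 lineages, Tnfrsf18 at 146 CPM in KO and 99.6 CPM in WT and Tnfrsf4 at 118 CPM in KO and 63.2 CPM in WT. That Tnfrsf4 ratio, 0.90 [0.25, 1.57] on 55 KO and 33 WT UMIs, was called, beside 0.32 with all cells. The Cd70 ratio without those cells, 0.56 [-0.23, 1.38], was not called.

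Outside mature DC-like cells the ligands differed in where they lay. Tnfsf9 was next highest in cDC2-like cells, at 42.5 CPM in KO and 56.1 CPM in WT (-0.40 [-0.67, -0.13]). Monocyte-like cells followed, at 34.3 CPM in KO and 36.4 CPM in WT. In KO, Treg-like cells came next at 22.2 CPM, above macrophage-like cells at 14.2 CPM and cDC1-like cells at 8.35 CPM. In WT, macrophage-like cells came next at 16.6 CPM, and Treg-like and cDC1-like cells were close, at 10.5 and 10.4 CPM. Cd70 and Tnfsf4 were lymphoid: CD8-like cells held 40.3% of the KO and 29.5% of the WT library's Cd70 UMIs, and 48.1% of the KO and 41.9% of the WT library's Tnfsf4 UMIs. Their CD8-like levels were close, with Cd70 at 13.7 CPM in KO and 12.96 CPM in WT (0.08 [-0.25, 0.42]) and Tnfsf4 at 5.80 CPM in KO and 6.05 CPM in WT (-0.06 [-0.56, 0.45]). In CD4 conventional-like cells Cd70 was called lower in KO, with 9 UMIs in KO (1.47 CPM) and 24 in WT (7.88 CPM), a ratio of -2.42 [-3.71, -1.27]. Of the 24 WT UMIs 1 cell held 10, the main cluster of the class held 1 UMI in KO and 2 in WT, and without proliferating clusters the ratio was not called. Neither Tnfsf4 nor Cd70 had a UMI in 401 KO or 3495 WT B-like cells, which, by a limit of 3 counts, allows a share of cells with a UMI of up to 0.748% in KO and 0.0858% in WT.

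**Figure D4:**
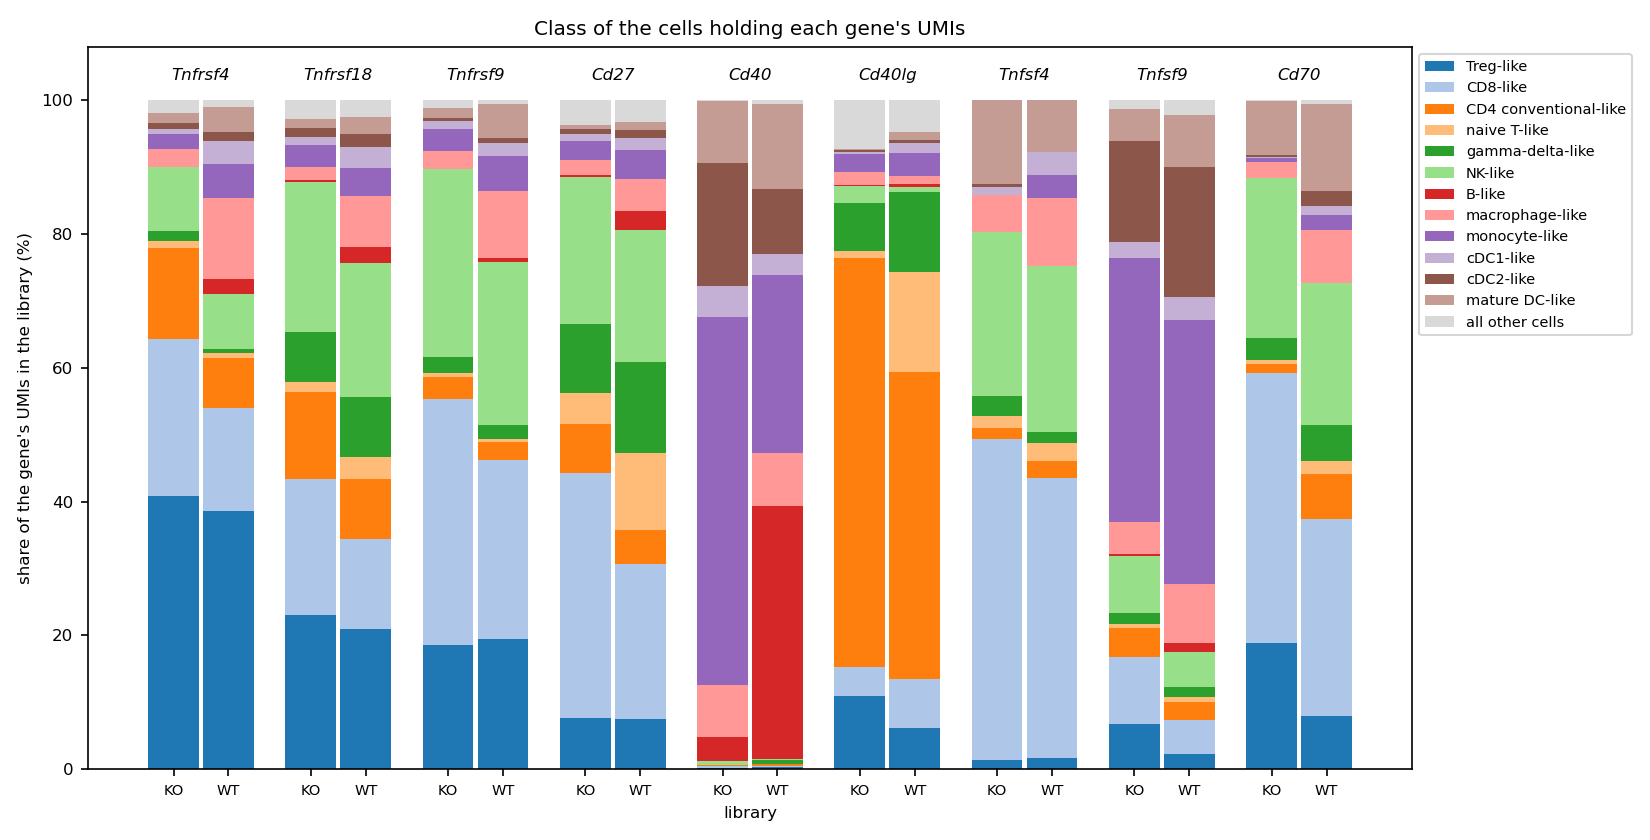
Share of each gene's UMIs in a library held by cells of each class, KO left of WT for each gene. B-like cells hold 3.7% of Cd40 UMIs in KO and 37.8% in WT, and monocyte-like cells 55% in KO and 26.7% in WT.

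Over all kept cells 5 members were called higher in KO, against 4.95% of 15302 genes, and none lower, against 7.63%. Tnfrsf9 had 98.9 CPM in KO and 46.3 CPM in WT (1.10 [1.04, 1.15]), Tnfrsf4 had 113 CPM in KO and 61.0 CPM in WT (0.89 [0.84, 0.94]), and Tnfrsf18 had 168 CPM in KO and 107 CPM in WT (0.66 [0.62, 0.70]). WT class levels weighted by the KO library's classes would give a log2 ratio of 0.52 for Tnfrsf9, 0.44 for Tnfrsf4 and 0.40 for Tnfrsf18. The remainder, 0.58 for Tnfrsf9, 0.46 for Tnfrsf4 and 0.26 for Tnfrsf18, holds differences within classes, those in the shares of clusters included. For Cd40 the 2 parts were opposite: 17.3 CPM in KO and 17.2 CPM in WT (0.00 [-0.10, 0.11]), with -0.67 from the class mix and 0.67 from the rest. Tnfsf4, at 2.59 CPM in KO and 1.54 CPM in WT, and Cd70, at 7.28 CPM in KO and 4.69 CPM in WT, were the other 2 called.

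Among other genes of the pathway, 4 lists were counted in each class: 30 other TNF receptors and ligands, 25 TRAF and NF-kB genes, 13 survival genes and 11 other costimulatory genes. All 25 TRAF and NF-kB genes were measured in every class. None was called in Treg-like, CD8-like, gamma-delta-like, NK-like, monocyte-like or cDC2-like cells. In macrophage-like cells, where 57.5% of KO and 59.9% of WT cells carried markers of 2 lineages, 4 of the 25 were called lower in KO, against 5.72% of all genes, and 0 at 2-fold. Of these Traf1 was at 46.2 CPM in KO and 87.0 CPM in WT (-0.91 [-1.14, -0.69]). In Treg-like cells the list's median log2 ratio was 0.05, beside 0.00 over all genes. In Treg-like cells 3 of 17 measured other TNF genes were called higher, against 2.39% of all genes. Tnfsf8, the CD30 ligand, had 29.98 CPM in KO and 10.1 CPM in WT (1.57 [0.96, 2.24]), and Tnfsf11 (RANK ligand) had 23.7 CPM in KO and 7.76 CPM in WT (1.61 [0.91, 2.38]). Tnfrsf25 was the other, and Cd86 was lower in KO at 8.95 CPM against 16.3 CPM in WT.

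In NK-like cells the cytokine gene Il2 had 11.1 CPM in KO and 1.91 CPM in WT (2.54 [1.82, 3.35]), and Slamf1 had 9.37 CPM in KO and 3.26 CPM in WT (1.52 [0.94, 2.15]), both called higher, with Tnfrsf13b and Tnfsf8 called lower. Il2 was called lower in KO in CD8-like (-0.76), macrophage-like (-1.64) and monocyte-like cells (-2.40). The macrophage-like value rested on 21 KO and 82 WT UMIs and the monocyte-like value on 33 KO and 133 WT UMIs. Markers of 2 lineages were carried by 57.5% of KO and 59.9% of WT macrophage-like and 11.9% of KO and 18.5% of WT monocyte-like cells. The part of such cells in the Il2 ratios was not tested. In CD8-like cells 6 of 24 measured other TNF genes were called lower and 2 higher, against 4.4% and 3.56% of all genes. Of these Tnfsf14 (LIGHT) had 2.85 CPM in KO and 8.27 CPM in WT (-1.54 [-2.08, -1.002]), and Tnfrsf13b had 4.09 CPM in KO and 11.1 CPM in WT (-1.44 [-1.90, -0.99]). RNA of B-cell markers summed to 34.6 CPM in KO and 124 CPM in WT CD8-like cells. In NK-like cells it summed to 69.0 CPM in KO and 151 CPM in WT, and its part in these ratios was not tested. In CD4 conventional-like cells the survival gene Bcl3 was higher in KO at 34.4 CPM against 20.7 CPM in WT (0.74 [0.32, 1.17]), and Tnfsf14 was lower at 6.20 CPM against 12.5 CPM in WT (-1.01 [-1.70, -0.32]). In cDC2-like cells, beside Cd40, the costimulatory ligand Cd80 had 18.5 CPM in KO and 11.47 CPM in WT (0.69 [0.17, 1.22]), and the death receptor Fas had 10.6 CPM in KO and 4.64 CPM in WT (1.19 [0.42, 2.03]). Fas was also higher in KO in monocyte-like cells, at 33.6 CPM against 19.8 CPM in WT (0.76 [0.55, 0.98]). The same held in B-like cells, at 10.4 CPM against 2.86 CPM in WT (1.865 [0.91, 2.76]). There 3 of 10 measured other TNF genes and 3 of 12 survival genes were called higher, against 3.3% of all genes. In naive T-like cells 2 of 12 survival genes were called higher, against 8.55% of all genes.

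Genes of like pattern were sought by Pearson correlation of log2(CPM + 1) over the 22 class-and-library sums, among 7464 genes. The sums are those of the 11 compared classes. They leave out mature DC-like cells, where Cd40, Tnfsf4, Tnfsf9 and Cd70 had their highest levels. The sums share 2 libraries and their depths, so the coefficients are descriptions. Nearest to Tnfrsf4 were Odc1 (0.94), Ctla4 (0.94) and Sdf4 (0.93), and nearest to Tnfrsf18 were Podnl1 (0.96), Cd82 and Ndfip1. Tnfrsf9 lay near Nucb1 (0.95) and Gzmb. Cd27 lay nearest to Itm2a and Lck (each 0.97), Cd40 to Ly86 (0.98), Ctsh and Lmo2, and Cd40lg to Stat5b, Trat1 and Cd4. Tnfsf4 lay nearest to Prf1 (0.94), Tnfsf9 to Cd200r1 (0.94) and Cd70 to Mrps6 (0.92). Among the members themselves Tnfrsf4 and Tnfrsf9 were alike at 0.86, and Cd40 and Cd27 opposite at -0.96.

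**Figure D5:**
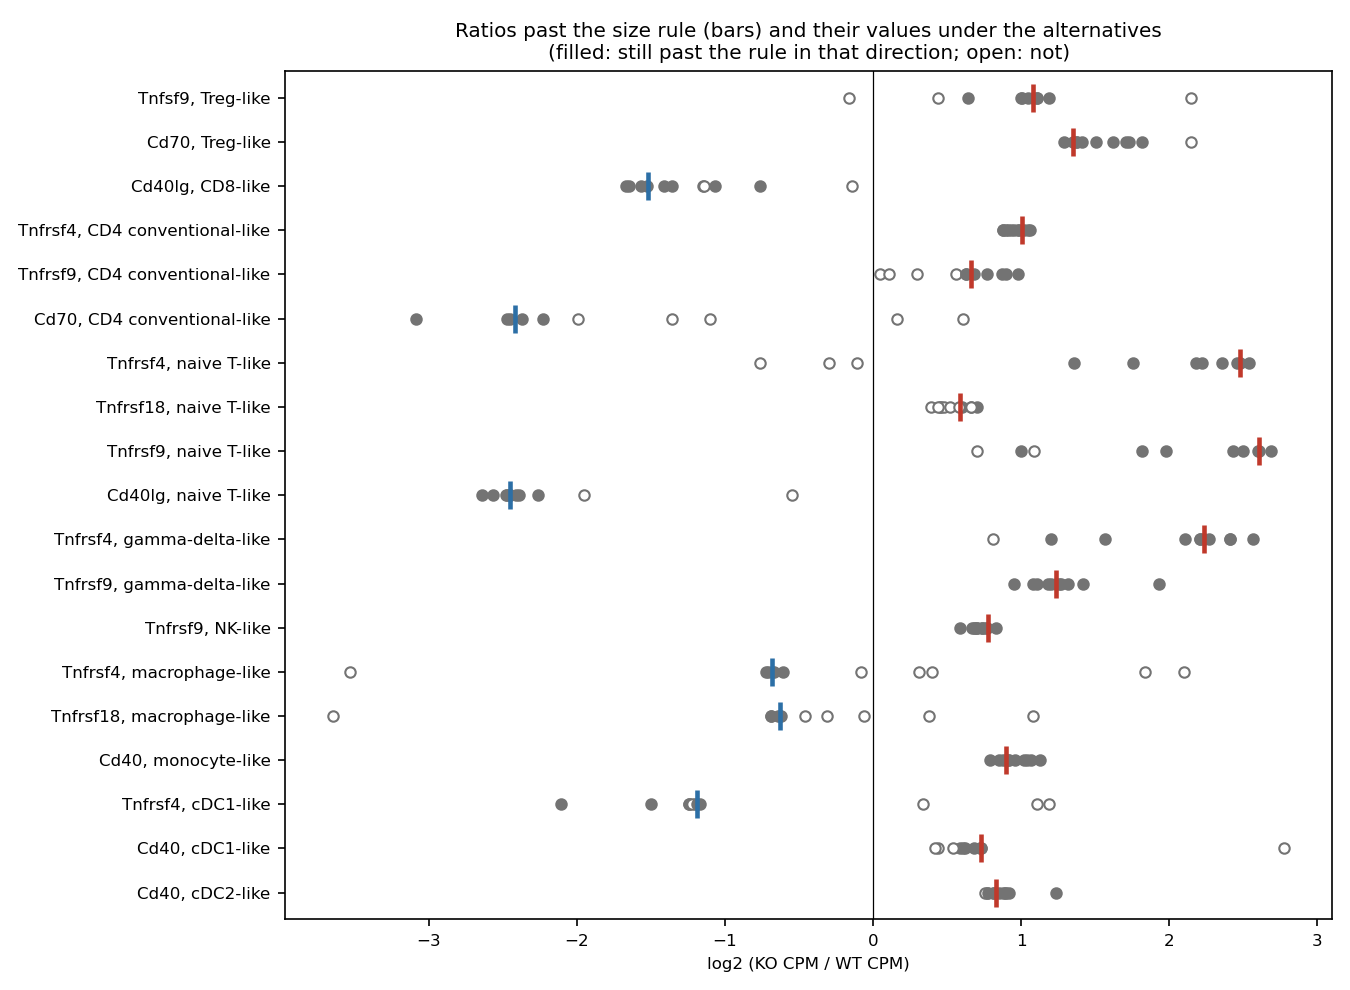
The 19 called ratios (bars, red higher and blue lower in KO) and their values under the alternatives (circles, filled where still called in that direction). Tnfrsf4 in CD4 conventional-like, Tnfrsf9 in gamma-delta-like and NK-like and Cd40 in monocyte-like cells stay called throughout, while calls in macrophage-like cells cross 0.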

How the data were processed

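The matrices the authors deposited hold whole UMI counts that were not normalized. Per the submitters' processing notes the tools were Cell Ranger and STAR with the mm10 build, and the matrix header gives software version 5.0.0. The KO matrix held 112544655 UMIs over 11398 barcodes and the WT matrix 98438084 over 11432. Cells with at least 500 genes, 1000 UMIs and at most 10% mitochondrial UMIs were kept. In both libraries the expected share of cells with the highest Scrublet scores was removed. The plan had been to use the caller's own calls where it worked, which it did for WT (355 cells) and not for KO (0 cells). The common rule replaced that plan after the members' values had been seen; it removed 1015 KO and 1020 WT cells. Cells were clustered with scanpy 1.11.5 (2000 variable genes, 30 components, 15 neighbours, Leiden resolution 1). The naming of clusters led by another class's markers, and the placing of proliferating cells by their nearest classes, were also adjusted after the clusters had been seen. UMIs were summed per class and library and scaled to CPM. Intervals are exact 95% ones (Poisson for CPM, conditional binomial for ratios, Clopper-Pearson for shares, with a limit of 3 counts for zeros) and cover counting error only. Those for ratios were run on counts simulated under the Poisson model that they assume. That run could not show their coverage for UMIs clumped in single cells. Cells are not replicates and no p-value is given. The 9 members, the pathway lists and the markers were chosen with earlier results of these data known. Named were all members, up to 4 pathway genes per class by the interval bound nearest 0, and genes among the 3 most like each member, of which 1 is not reported here. Clusters were described after their values were seen, and the filter on cells with markers of 2 lineages was chosen after seeing the data.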

Additional observations from a re-analysis of the deposited data

Results flagged for a closer look

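Of the members, 3 were called in opposite directions in different classes; with 1 library per genotype the differences between classes were not tested. Tnfrsf4 was higher in KO in CD4 conventional-like (1.01), naive T-like (2.48) and gamma-delta-like cells (2.24) and lower in macrophage-like (-0.68) and cDC1-like cells (-1.19). Tnfrsf18 was higher in naive T-like (0.59) and lower in macrophage-like cells (-0.63). Cd70 was higher in Treg-like (1.35) and lower in CD4 conventional-like cells (-2.42). The Tnfrsf18 call was kept under 3 of 11 alternatives in naive T-like and 5 of 11 in macrophage-like cells. The Cd70 call was kept under 10 of 11 in Treg-like and 5 of 10 in CD4 conventional-like cells. That of Tnfrsf4 was kept under 11 of 11 in CD4 conventional-like, 10 of 11 in gamma-delta-like and 8 of 11 in naive T-like cells. It was kept under 5 of 11 in macrophage-like and 7 of 11 in cDC1-like cells. Without cells carrying markers of 2 lineages, the Tnfrsf4 ratio was 1.84 in macrophage-like and 1.11 in cDC1-like cells, on 3 KO and 1 WT UMIs and on 7 KO and 3 WT UMIs, too few for a call.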

How the results depend on the processing

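No paired analysis was possible because each genotype had 1 library, and no replicate could be left out. Under the per-library rule first planned, 23 pairs were lower in place of 6, and among the 73 pairs measured under the common rule 15 of the 19 calls were kept and 17 were new, Tnfrsf4 in naive T-like cells was -0.30, and the all-cell ratios were 0.69 for Tnfrsf4, 0.59 for Tnfrsf18, 0.94 for Tnfrsf9 and -0.08 for Tnfsf9. With no doublets removed 12 of 19 calls were kept, Cd70 in CD4 conventional-like cells was 0.61, Tnfrsf4 was 0.40 in macrophage-like and 0.34 in cDC1-like cells, Tnfrsf18 was 0.38 in macrophage-like cells, and the all-cell ratios were 0.82 for Tnfrsf4 and 1.03 for Tnfrsf9. With the single-cell gate 12 of 19 calls were kept, 8 were new and 1 pair was lower. By that gate Tnfsf9 in Treg-like cells was -0.16, Cd70 in CD4 conventional-like cells 0.16, Tnfrsf4 2.10 in macrophage-like and 1.19 in cDC1-like cells, and Tnfrsf18 1.08 in macrophage-like cells. At resolution 2 Tnfrsf4 in macrophage-like cells was 0.31. With cells thinned to 1000 UMIs 5 of the 17 calls among the 65 pairs compared were kept and 2 were new. Then 7 pairs were higher and 0 lower, by the same counting intervals on fewer UMIs, and Tnfrsf4 in naive T-like cells was -0.76. Without proliferating clusters Tnfrsf4 in naive T-like cells was -0.11. Without cells carrying markers of 2 lineages 3 pairs were lower, and Tnfrsf4 was 1.84 in macrophage-like and 1.11 in cDC1-like cells. With a 2-fold rule 7 pairs were higher and 4 lower; by class, 0.822% to 3.33% of all genes were then higher and 0.709% to 2.94% lower. Over all deposited barcodes the ratios were 0.83 for Tnfrsf4 and 1.04 for Tnfrsf9. Without B-like cells they were 0.70 for Tnfrsf4, 0.46 for Tnfrsf18, 0.87 for Tnfrsf9, 0.02 for Cd27, 0.41 for Cd40, 0.01 for Cd40lg, -0.15 for Tnfsf9 and 0.41 for Cd70. The causes of these shifts were not tested. The stricter cell filter and trimmed-mean scaling each kept 18 of 19 calls, with trimmed-mean scaling moving all genes by at most 0.06 except 0.11 in naive T-like cells. Leaving out each library's top cell also kept 18 of 19, and clustering with the members and pathway genes included kept 12. Calls on few UMIs, such as those of the sparse ligands, are limited by depth.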
